A study of Mus musculus with 28 samples.

Results

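The growth factors of the spermatogonial stem cell niche are the secreted signals that somatic cells of the testis send to the stem cells and their first progeny. The 10 genes described here are Gdnf, Fgf2, Kitl, Cxcl12, Csf1, Bmp4, Wnt5a, Wnt6, Nrg1 and Igf1. They were taken by symbol, and all 10 were found among the 43280 gene rows of the deposited tables. Polyadenylated RNA was sequenced on an Ion Proton instrument in 28 mouse libraries. All mice, including those that served as the germ cell-containing set, received WIN 18,446, a blocker of retinoic acid synthesis, for 7 days and then 1 injection of retinoic acid, which sets the cycle of spermatogenesis to the same phase throughout the testis. Tissue was taken 42 to 50 days later, and the labels give no age at that point. In the first set, 10 libraries were made from Sertoli cells of mice heterozygous for a red fluorescent protein and positive for Amh-Cre, a recombinase driven by a Sertoli cell promoter, on a C57BL/6 and 129s4/SvJae background. The strain label of group A replicate 1 names C57BL/6 and Amh-Cre instead. The text on RNA extraction calls the sorted cells germ cells, while every other label names Sertoli cells, and the groups were kept as labelled. These cells were sorted for the red reporter and fall into 5 groups of 2, named by the prevailing stages of the cycle of spermatogenesis: the earliest, I-III, make up group B, the next, IV-VI, group C, then VII-VIII are called D, IX-X are called E, and the last, XI-XII, form group A. In the second set, 18 libraries were made from the entire testis of NANOS2 KO mice with a CD1 background, 2 for each of the 9 days from 42 to 50. Loss of NANOS2 depletes the germ line, so that the testis keeps its somatic cells. Their cell type is labelled Sertoli, although all somatic cells of the testis were in the sample. Nothing says that the 2 libraries of a group came from different animals, so the p-values measure the spread between libraries, part of which may be technical.

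A sorted library held 1901743 to 5279746 counts and a NANOS2 KO library 1336742 to 4370138, so that 3 counts equal 0.568 to 1.58 CPM (counts scaled to a common library total) and 0.686 to 2.24 CPM. Precision at levels near these floors is poor. Nanos2 itself had 2 counts over the 10 sorted libraries and 0 counts in all 18 NANOS2 KO libraries, too few to check the labels. The 16 Sertoli cell markers took a share of 0.888 to 1.43% in sorted cells and 1.63 to 1.93% in NANOS2 KO testes, with none at 0 in either. Clu had the highest mean of the 16, 4977 CPM in sorted cells and 10740 CPM in NANOS2 KO testes. These shares, and any sum of these markers, therefore lean on 1 gene. The 8 Leydig cell markers took 0.0014 to 0.00507% and 0.269 to 0.704%, and Insl3 and Lhcgr were at 0 in every sorted library. Stromal markers took 0.00197 to 0.0066% and 0.123 to 0.265%. The 8 markers of elongating spermatids took 0.207 to 1.48% in sorted cells and at most 0.000297% in NANOS2 KO testes, so RNA of germ cells was present in the sorted cells. In bulk samples of this kind, fewer cells of a type and less RNA per cell cannot be told apart.

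As background, the niche acts through several receptor systems. GDNF from Sertoli and peritubular myoid cells binds GFRA1 and RET on undifferentiated spermatogonia and sustains their self-renewal, helped by fibroblast growth factors such as FGF2, while CXCL12 holds the same cells in place through CXCR4. KIT ligand, encoded by Kitl, and BMP4 act on spermatogonia that have begun to differentiate. CSF1 from interstitial and myoid cells acts through CSF1R, which macrophages carry in abundance; WNT5A and WNT6 act through Frizzled, ROR and RYK receptors; neuregulin 1 acts through ERBB receptors; and IGF1 acts through IGF1R.

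RefSeq promoter entries (GRCm38.p6) exist for 8 of the 10 genes. The 250 bases before each annotated start are shown for Wnt6, whose level differed between stages, and for both starts listed for Gdnf, whose stage call depended on the settings. All are written 5′ to 3′ on the plus strand.
Wnt6, chr1:74771642-74771891: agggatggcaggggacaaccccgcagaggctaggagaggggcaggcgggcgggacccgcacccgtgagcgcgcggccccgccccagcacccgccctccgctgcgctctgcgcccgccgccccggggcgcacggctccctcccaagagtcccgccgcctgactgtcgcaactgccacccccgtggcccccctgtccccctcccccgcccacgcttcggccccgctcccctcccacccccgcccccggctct
Gdnf, first start, chr15:7809798-7810047: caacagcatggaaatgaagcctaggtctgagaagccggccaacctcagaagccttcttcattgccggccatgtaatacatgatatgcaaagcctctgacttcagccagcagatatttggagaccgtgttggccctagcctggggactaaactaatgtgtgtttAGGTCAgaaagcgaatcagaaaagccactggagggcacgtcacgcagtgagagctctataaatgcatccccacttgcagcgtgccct
Gdnf, second start, chr15:7813477-7813726: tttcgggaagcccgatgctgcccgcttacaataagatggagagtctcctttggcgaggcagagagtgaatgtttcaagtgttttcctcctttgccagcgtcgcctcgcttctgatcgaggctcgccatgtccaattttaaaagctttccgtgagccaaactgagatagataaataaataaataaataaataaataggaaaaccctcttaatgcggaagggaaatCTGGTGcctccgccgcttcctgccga
Capitals mark matches on either strand to 2 motifs of 6 letters: AGGTCA, an element bound by nuclear receptors such as those for retinoic acid, and CACNAG, the N-box bound by HES repressors. AGGTCA was found 87 bases before the first start of Gdnf, counted from the motif's first base. The reverse complement of CACNAG lay 26 bases before the second start. The Wnt6 window held neither and was 79.6% G and C, against a median of 52.4% over all entries. Among all 32851 promoter entries, windows of the same 250 bases held AGGTCA in 14.02% and CACNAG in 36.7%, so these letters are common, and a match describes the sequence without showing a bound site.

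Of the 10 growth factors, Gdnf, Kitl and Wnt6 were read in sorted Sertoli cells at levels that allowed a test; the other 7 were at or near the floor. Wnt6 (ENSMUSG00000033227.7, chr1:74771892-74785322 on GRCm38), a WNT ligand, was highest in group C and lowest in groups E and A. Its level was 103.3 and 97.8 CPM in the 2 libraries of group C (IV-VI), 50.5 and 61.5 CPM in group B (I-III), 42.4 and 54.1 CPM in group D (VII-VIII), 30.3 and 29.6 CPM in group E (IX-X), and 29.4 and 29.9 CPM in group A (XI-XII). Both libraries of group C lay above every other sorted library, and the 4 libraries of E and A lay below all others. Neighbours in this order that did not separate were B and D, with means of 56.0 ± 7.80 and 48.3 ± 8.25 CPM (SD, n = 2 each), and E and A, with 30.0 ± 0.48 and 29.7 ± 0.34 CPM (SD, n = 2 each). The 5 groups differed in edgeR's quasi-likelihood F test (adjusted p = 0.00498). Of the 3 growth factors tested, 1 passed, against 8.09% of all 14331 genes tested. In the contrast of groups E and A with groups C and D, Wnt6 was lower by a log2 change of -1.19 (SE 0.19, 95% interval -1.61 to -0.77, edgeR adjusted p = 0.0016). It was the 1 growth factor of 3 called in that contrast, where 14.2% of all genes were called, 6.93% higher and 7.28% lower. Stromal markers lay in a like order, with B and D exchanged and with a share of 0.00577 ± 0.00118% of the counts in group C, 0.00401 ± 0.00157% in D, 0.00341 ± 0.00125% in B, 0.00248 ± 0.000717% in E and 0.00245 ± 0.00034% in A (SD, n = 2 each). Of the 4 stromal markers tested, Pdgfra and Col1a1 were lower in the same contrast, and their part in the levels of Wnt6 was not tested.

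Gdnf (ENSMUSG00000022144.4, chr15:7810846-7837575), the self-renewal factor, was read at a few CPM. The libraries of group B had 6.84 and 8.97 CPM, those of group C 2.54 and 10.7 CPM, those of group A 6.68 and 5.82 CPM, those of group E 4.36 and 3.73 CPM, and those of group D 1.12 and 2.09 CPM. The 2 libraries of group D, made from 3 and 8 counts, were the lowest of all 10, while the 2 of group C stood at opposite ends of the range of the rest. The group means were 7.90 ± 1.51 CPM in B, 6.60 ± 5.75 in C, 6.25 ± 0.61 in A, 4.04 ± 0.44 in E and 1.60 ± 0.69 in D (SD, n = 2 each). In the F test across stages the adjusted p of edgeR was 0.212, and it fell to 0.0488 without group C replicate 1 and to 0.0274 when low genes were kept. The contrast of E and A with C and D gave a log2 change of 0.61 (SE 0.45, 95% interval -0.37 to 1.59, edgeR adjusted p = 0.414), so a difference of either sign lies within the interval. It was 0.29 without group C replicate 1 and 1.34 without group C replicate 2 (adjusted p = 0.664 and 0.0594).

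Kitl (ENSMUSG00000019966.18, chr10:100015630-100100416), the ligand of KIT, was read in every sorted library. The 2 libraries of group A had 62.1 and 24.7 CPM, those of B 42.1 and 36.5 CPM, those of C 38.1 and 29.2 CPM, those of E 30.3 and 23.7 CPM, and those of D 29.0 and 22.0 CPM. Group A alone spanned nearly the whole range, and every group overlapped the range of group A. The F test gave an edgeR adjusted p of 0.555, and the contrast of E and A with C and D a log2 change of 0.26 (SE 0.29, 95% interval -0.35 to 0.88, adjusted p = 0.60). Without group A replicate 1 that change was -0.13. Compared per kilobase of annotated exon, the levels over the 10 sorted libraries were 24.1 ± 12.6 CPM per kb for Wnt6, 5.71 ± 2.01 for Kitl and 1.44 ± 0.84 for Gdnf (SD, n = 10).

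**Figure D1:**
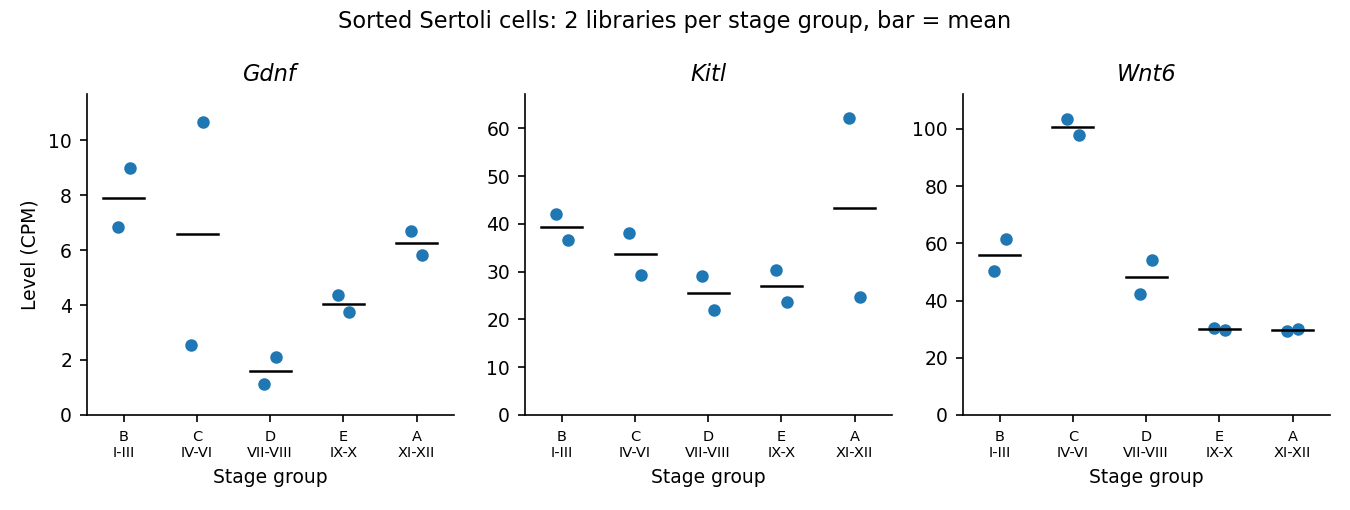
Level in CPM of Gdnf, Kitl and Wnt6 in sorted Sertoli cells, with 1 point per library, 2 libraries per stage group and a bar at the mean. Wnt6 reaches 103.3 and 97.8 CPM in group C; Gdnf is lowest in group D with 1.12 and 2.09 CPM; the 2 libraries of group A are far apart for Kitl.

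The other 7 growth factors did not pass the filter on low counts in sorted cells. Over the 10 sorted libraries, Fgf2 had 4 counts, Bmp4 8, Nrg1 10, Csf1 29, Igf1 34, and Cxcl12 and Wnt5a 36 each. Fgf2 was at 0 in 7 libraries, Bmp4 in 5, Nrg1 in 4, Csf1 and Wnt5a in 2 each, and Cxcl12 and Igf1 in 1 each. The highest single library reached 2.54 CPM for Cxcl12, a chemokine, 2.27 CPM for Wnt5a, and 1.70 CPM for Igf1. Of the 36 counts of Wnt5a, 12 and 9 came from the 2 libraries of group E (2.27 and 1.98 CPM), and both libraries of group C had 0. With low genes kept, the contrast of E and A with C and D also called Wnt5a. For the other 6 no difference between stages was detectable at this depth.

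The genes whose log2 level followed each growth factor most closely over the 10 sorted libraries were found among 12211 genes; libraries share their stage group and germ cell content, so the correlations are a description. For Wnt6 they were Tmprss5 (Pearson r = 0.97), Cyth1 (r = 0.96) and Kank2 (r = 0.95). Their means also peaked in group C, at 18.8 CPM against 2.31 in group A for Tmprss5, 112.7 against 51.4 CPM for Cyth1, and 94.3 against 37.4 CPM for Kank2. For Gdnf they were Fsd1 (r = 0.95), Lelp1 (r = 0.94) and Fabp12 (r = 0.94), all with their lowest mean in group D. Lelp1 went from 99.9 CPM in group B to 36.1 CPM in D. The markers of elongating spermatids likewise took 1.34 ± 0.0954% of the counts in group B, 1.32 ± 0.228% in A, 0.994 ± 0.196% in E, 0.885 ± 0.26% in C and 0.25 ± 0.0618% in D (SD, n = 2 each). The myoid markers took 0.0952 ± 0.00395% in A, 0.0926 ± 0.00568% in B, 0.0785 ± 0.00607% in C, 0.0696 ± 0.00994% in E and 0.0566 ± 0.00301% in D (SD, n = 2 each). Myl9 had the highest mean of these, 568.5 CPM. The part of both shares in the levels of Gdnf and Kitl was not tested. For Kitl the closest were Amot (r = 0.98), Akap17b (r = 0.97) and Sgk3 (r = 0.96), each highest or next to highest in group A by mean.

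Several genes downstream of these factors differed between stages. Among 19 tested genes of a list of response and feedback genes, 5 were higher and 2 lower in groups E and A than in C and D, against 6.93% and 7.28% of all genes, with a list median of 0.06 beside 0.01 for all genes (log2). The 3 with the smallest p that rose were inhibitors of growth factor signalling through the ERK pathway: Spry1 by 1.58 (SE 0.21, adjusted p = 0.000411), Spry4 by 1.58 (SE 0.23, adjusted p = 0.000768) and Dusp6 by 1.35 (SE 0.25, adjusted p = 0.00321), all in edgeR. Spry1 was at 68.4 and 64.3 CPM in group A, 64.2 and 54.5 in B, 48.3 and 42.1 in E, 39.2 and 30.8 in C, and 9.68 and 10.5 in D. Spry4 followed the same order of means, from 40.1 ± 0.768 CPM in A to 6.62 ± 0.118 CPM in D (SD, n = 2 each). For both, no library of group D came within the range of any other group.

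Spred2, a further inhibitor, and Etv5, a transcription factor that Sertoli cells and spermatogonia express, completed the 5 and are named after their values were seen. Spred2 rose by 1.42 (SE 0.27) and Etv5 by 0.92 (SE 0.19; adjusted p = 0.00744 in edgeR), the latter from 62.9 and 68.2 CPM in group D to 256.1 and 231.4 CPM in group A. The call of Etv5 was lost when libraries were scaled by the median of the Sertoli markers, a setting chosen once the data had been seen. The 2 that fell were Id1 and Id2, inhibitors of differentiation that BMP signalling induces in many cells. Id1 changed by -4.30 (SE 0.56, edgeR adjusted p = 0.000363) and was at 5.96 and 7.06 CPM in group D and 3.63 and 4.88 CPM in C, but at most 0.658 CPM in the 6 libraries of A, B and E. Id2 changed by -1.26 (SE 0.24) and was highest in group C, at 41.7 and 51.5 CPM. Markers of other cells moved in the same contrast. Higher in E and A were 5 of 8 elongating spermatid markers and 1 of 6 myoid markers. Lower were 3 of 4 endothelial, 2 of 4 stromal, 1 of 4 Leydig cell, 3 of 8 round spermatid, 2 of 9 spermatocyte and 1 of 11 spermatogonial markers tested. The endothelial markers took 0.00109 to 0.0041% of the counts of a sorted library. The part of these lists in the levels of the response genes, and of the receptors, binding proteins and regulators that follow, was not tested.

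**Figure D2:**
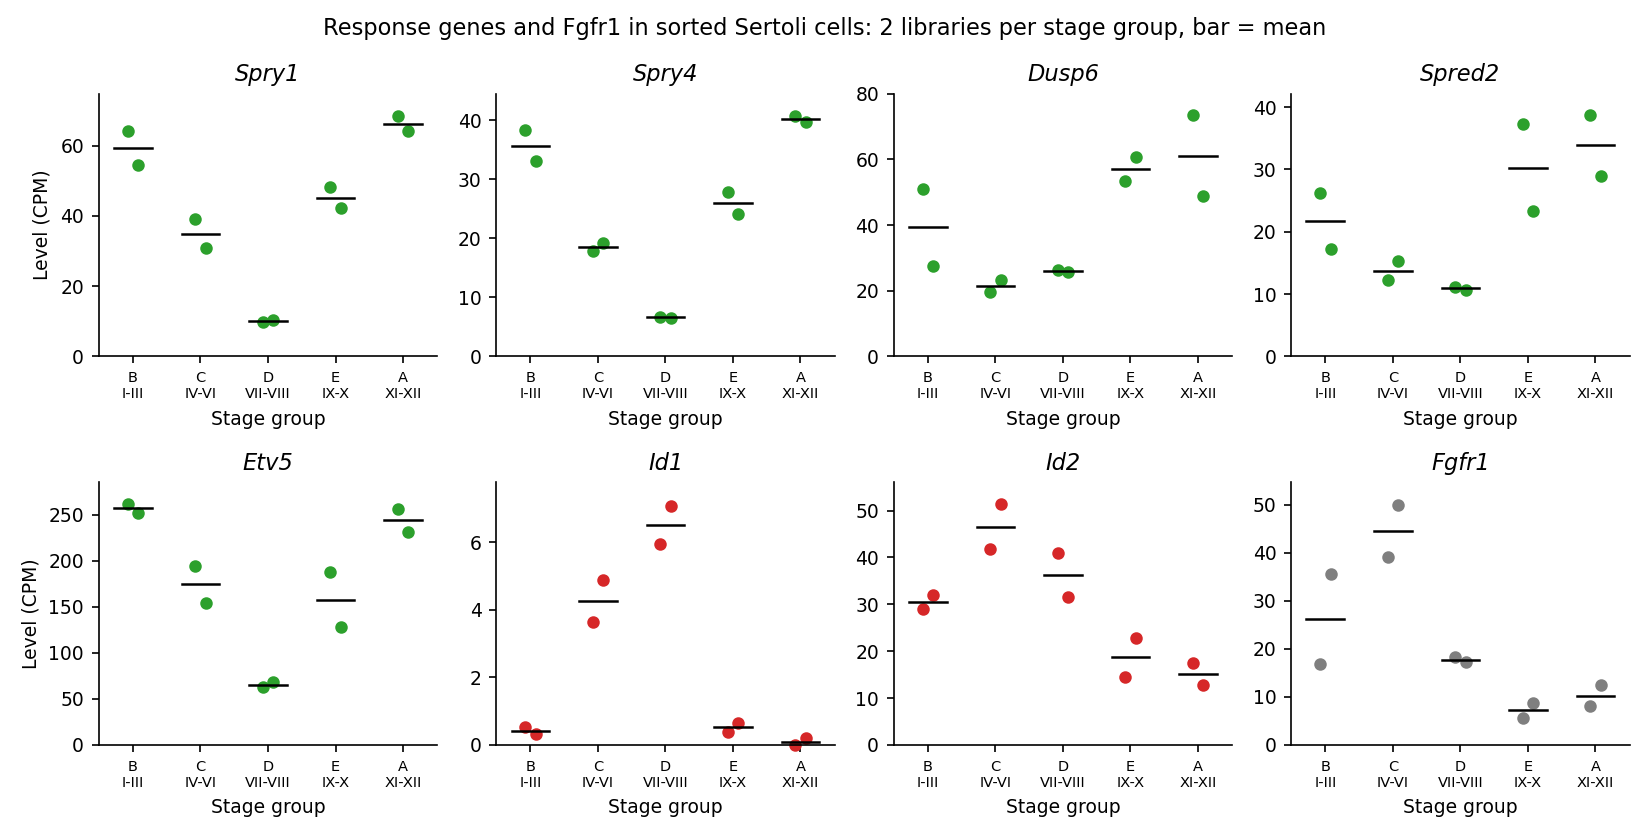
Level in CPM of 7 response genes and Fgfr1 in sorted Sertoli cells, with 1 point per library and a bar at the mean of 2. Spry1, Spry4 and Etv5 have their lowest libraries in group D; Id1 reaches 5.96 and 7.06 CPM in group D and stays at or under 0.658 CPM in groups A, B and E.

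Across the 5 stage groups, edgeR's F test called 5 of 27 tested receptors of the growth factors, against 8.09% of all genes. They were Fgfr1 (adjusted p = 0.00831), Ackr3 (0.0196), Fzd1 (0.0407), Ryk (0.0419) and Erbb2 (0.044), the last named after its value was seen. Ackr3, a receptor that binds CXCL12, was at 49.1 and 36.6 CPM in group D and at 5.78 and 4.81 CPM in group B. In the contrast of E and A with C and D, 0 of the 27 were higher and 2 were lower, against 6.93% and 7.28% of all genes, so the share that was lower was near the background. The list median was -0.15 beside 0.01 for all genes. Fgfr1, a receptor for FGF2, changed by -1.68 (SE 0.30, adjusted p = 0.00283) and had 39.2 and 50.0 CPM in group C against 5.68 and 8.78 CPM in group E. Ryk, a coreceptor of WNT ligands, changed by -0.99 (SE 0.20, adjusted p = 0.0056), with 93.2 and 81.0 CPM in group C and 38.5 and 41.5 CPM in E. By level, Lrp5 (77.2 ± 52.7 CPM), Ryk (59.2 ± 22.0 CPM), Igf1r (45.1 ± 10.7 CPM) and Bmpr1a (40.5 ± 13.3 CPM, SD, n = 10 each) were the receptors with the most counts in sorted cells. Ret and Gfra1, the receptors of GDNF on spermatogonia, had means of 3.75 and 1.65 CPM. Gfra1 was also read in NANOS2 KO testes, with means of 2.085 CPM on days 42 to 44 and 1.484 on days 48 to 50. The cells that gave these counts are therefore not known.

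Secreted proteins that bind or present the factors went both ways. Of 21 tested, 2 were higher and 4 lower in groups E and A than in C and D by edgeR, against 6.93% and 7.28% of all genes. Frzb, a secreted WNT antagonist, rose by 0.82 (SE 0.23, adjusted p = 0.0302), with its lowest mean, 80.0 ± 0.251 CPM (SD, n = 2), in group C, where Wnt6 was highest. Sdc2, a heparan sulphate proteoglycan, rose by 1.24 (SE 0.38, adjusted p = 0.0437). Neither of these calls held with scaling by the median of the Sertoli markers. Gpc1, a glypican, changed by -2.77 (SE 0.34, adjusted p = 0.000223), from 46.5 and 61.9 CPM in group D and 29.4 and 52.1 CPM in C to 3.63 and 5.63 CPM in A. Igfbp3 (-1.83, SE 0.34) and Igfbp7 (-1.42, SE 0.26), which bind insulin-like growth factors, were the next, and Gpc4 (-1.06, SE 0.21), a glypican named after its value was seen, was the last of the 4.

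Among 16 tested genes known to control Gdnf or other niche factors in Sertoli cells, 1 was higher and 3 were lower in groups E and A, against 6.93% and 7.28% of all genes. Much of this list belongs to the Notch pathway, and its members Hes1, Hey1 and Rbpj were tested and not called, so nothing is read from the pathway of the 4 that were. The ligand Jag1 rose by 1.21 (SE 0.29, edgeR adjusted p = 0.0133) and was lowest in group D, at 5.96 and 10.7 CPM. The receptor Notch1 changed by -2.55 (SE 0.46, adjusted p = 0.00283), from 135.1 and 103.2 CPM in group D to 4.58 and 7.57 CPM in A. The share of the endothelial markers had the same lowest and highest groups, with 0.00354 ± 0.000796% in D, 0.00303 ± 0.000846% in C, 0.00195 ± 0.000598% in B, 0.00156 ± 0.000312% in E and 0.00139 ± 0.000424% in A (SD, n = 2 each), and its part in the levels of Notch1 was not tested. Notch2 changed by -1.09 (SE 0.24, adjusted p = 0.00828). The target Heyl (-1.92, SE 0.60, adjusted p = 0.0492) lost its call under each other scaling tried, and Jag1 lost it with the median of the Sertoli markers. Fshr, Gata4 and Nr5a1 did not pass, with log2 changes of 0.17 (SE 0.30), 0.16 (SE 0.22) and 0.12 (SE 0.19). Of 14 related ligands tested, 0 passed in this contrast, and the F test across stages called Bmp7 (edgeR adjusted p = 0.0423).

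In NANOS2 KO testes, 9 of the 10 growth factors passed the filter, the exception being Nrg1. Over the 18 libraries the level of Kitl was 141 to 247.9 CPM with a median of 176.7, that of Cxcl12 117 to 232.6 CPM (median 163.8), that of Wnt6 98.4 to 143.9 CPM (median 113.5), and that of Csf1 87.9 to 128.4 CPM (median 113.3). Igf1 was at 42.2 to 84.9 CPM (median 67.7), Gdnf at 22.6 to 43.6 CPM (median 33.4), Wnt5a at 14.5 to 34.8 CPM (median 22.5), Bmp4 at 4.63 to 15.0 CPM (median 10.6), Fgf2 at 0.825 to 8.23 CPM (median 3.50) and Nrg1 at 0 to 3.17 CPM (median 1.14), with 2 libraries at 0. The spread over all 18 libraries, as a coefficient of variation, was smallest for Csf1 (9.58%), Wnt6 (12.2%) and Gdnf (14.7%) and largest for Fgf2 (49.5%) and Nrg1 (64.8%), the 2 with the fewest counts.

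Per kilobase of exon, Wnt6 was the highest of the 10, at 54.4 ± 6.66 CPM per kb (SD, n = 18), followed by Kitl at 30.4 ± 5.00, Csf1 at 20.9 ± 2.01 and Cxcl12 at 20.8 ± 3.63. Then came Gdnf at 8.94 ± 1.31, Igf1 at 6.70 ± 1.23, Bmp4 at 4.62 ± 1.11 and Wnt5a at 2.94 ± 0.66, with Fgf2 at 0.55 ± 0.27 and Nrg1 at 0.13 ± 0.08. Csf1 and Cxcl12 did not differ beyond their spread, and Gdnf and Igf1, Igf1 and Bmp4, and Bmp4 and Wnt5a each differed by less than the sum of their SDs. The exon length is that of all annotated exons together, so genes with long alternative ends, such as Igf1 and Nrg1, read low on this scale.

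Day by day, the growth factors showed no difference that passed the test. In the F test across the 9 days, 0 of the 9 tested growth factors passed in edgeR, against 0.582% of all 13065 genes; without adjustment 3 had a p under 0.05, Cxcl12, Wnt5a and Igf1, and DESeq2 called 0. A fit of 1 sine wave per 8.6 days, the length of the seminiferous cycle, called 0 of the 9 (0.00% of all genes) in edgeR; without adjustment 0 had a p under 0.05, and DESeq2 called 0. The fitted amplitudes (log2, centre to peak) ran from 0.02 for Fgf2 to 0.21 for Bmp4. Day means of Gdnf (SD, n = 2 each) lay between 27.8 ± 7.42 CPM (day 43) and 35.2 ± 4.48 CPM (day 42). Those of Wnt6 lay between 105 ± 9.57 CPM (day 42) and 132.7 ± 0.468 CPM (day 47), and those of Kitl between 158.6 ± 25.3 CPM (day 42) and 230.2 ± 25.1 CPM (day 43). The 2 libraries of day 50 gave Gdnf levels of 23.8 and 43.6 CPM, a wider gap than between the means of any 2 days.

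Igf1 (ENSMUSG00000020053.18, chr10:87858265-87937042), the ligand of IGF1R, was the 1 growth factor of 9 called along a straight line over the days, against 0.857% of all genes, 0.490% higher and 0.367% lower. Its libraries were at 80.3 and 84.9 CPM on day 42, 65.9 and 70.6 on day 43, 83.6 and 76.2 on day 44, 51.1 and 69.9 on day 45, 76.5 and 69.6 on day 46, 73.9 and 65.8 on day 47, 63.8 and 61.4 on day 48, 42.2 and 56.4 on day 49, and 51.2 and 51.0 on day 50. All 6 libraries of days 48 to 50 were below all 6 of days 42 to 44. The slope was -0.07 log2 per day (SE 0.02, edgeR adjusted p = 0.0314), which over 8 days is a change of -33.9% (95% interval -45.2 to -20.4%). The call was lost when any of 6 libraries was left out, namely day 42 replicate 1 or 2, day 43 replicate 1, day 44 replicate 1, day 48 replicate 2 or day 50 replicate 1 (adjusted p = 0.0505 to 0.0964), with slopes of -0.08 to -0.07 over all 18 omissions. It was also lost in limma on log2(CPM + 1) (adjusted p = 0.0589) and with scaling by the median of the Sertoli markers (adjusted p = 0.0916).

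Leydig cells are among the known sources of IGF1 in the testis, and the share of their 8 markers was 0.28 ± 0.00589% on day 42, 0.676 ± 0.0139% on day 48, 0.306 ± 0.0521% on day 49 and 0.574 ± 0.183% on day 50 (SD, n = 2 each). The F test across the days called 4 of these 8 markers, Cyp11a1, Hsd17b3, Cyp17a1 and Insl3, against 0.582% of all genes. On the line Insl3 alone passed, rising by 0.19 log2 per day (SE 0.04, edgeR adjusted p = 0.0314). The stromal share ran from 0.127 ± 0.00364% on day 48 to 0.196 ± 0.0282% on day 42, and was 0.195 ± 0.0987% on day 49, where replicate 1 had 0.265%. The part of these shares in the fall of Igf1 was not tested. Wnt6 (0.04, SE 0.01), Cxcl12 (0.04, SE 0.02) and Wnt5a (-0.06, SE 0.02) had slopes in log2 per day whose adjusted p in edgeR was 0.192, 0.26 and 0.205. Among the lists other than cell markers, the F test called 1 of 23 secreted modulators, Igfbp3 (adjusted p = 0.0356). The line called 1 of the 23, the BMP antagonist Chrd, which rose by 0.16 log2 per day (SE 0.04, adjusted p = 0.0473). No receptor (0 of 30), related ligand (0 of 22), response gene (0 of 21) or regulator (0 of 15) was called in either.

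**Figure D3:**
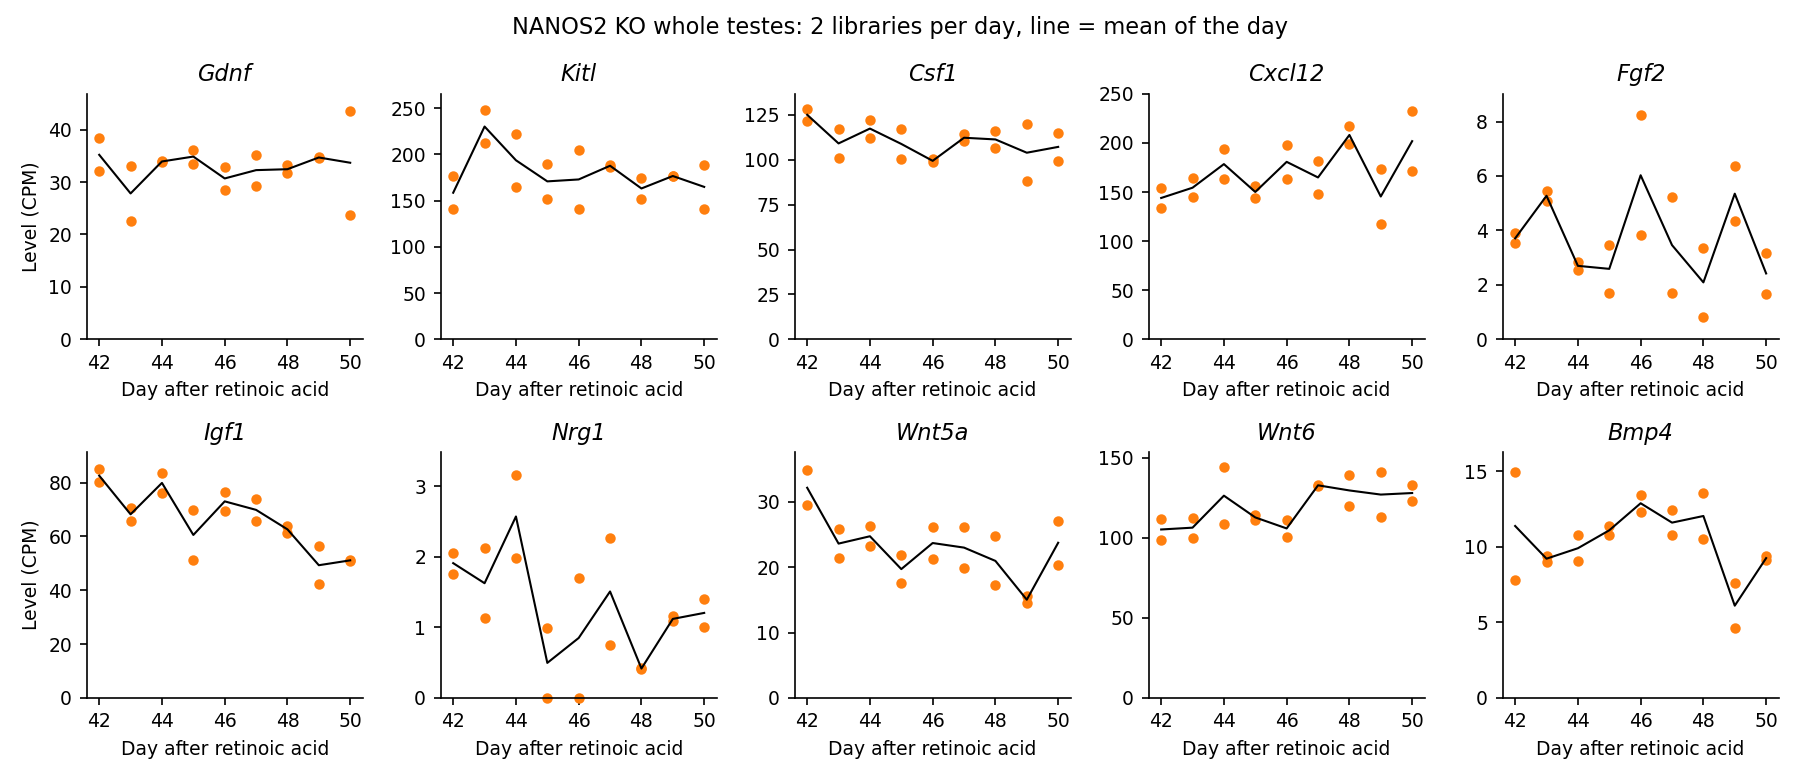
Level in CPM of the 10 growth factors in NANOS2 KO whole testes by day after retinoic acid, with 2 libraries per day as points and the day mean as a line. Igf1 goes from 80.3 and 84.9 CPM on day 42 to 51.2 and 51.0 CPM on day 50; Fgf2 and Nrg1 scatter near the floor of counting.

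Set against sorted Sertoli cells, NANOS2 KO testes had higher scaled counts of every growth factor that could be tested. Scaled counts are shares of a library and not amounts of RNA. The comparison of the sets joins the absence of germ cells, the strain, the sorting and the presence of all other somatic cells, which cannot be told apart. In a joint fit all 9 tested growth factors were higher, where 85.1% of all 15777 genes were called, 38.0% higher and 47.0% lower. Of the 9, only Gdnf, Kitl and Wnt6 passed the filter within the sorted set; the other 6 entered through the NANOS2 KO libraries and had to differ, so the count of 9 is no support. The median log2 change of all genes was -0.17, and it was -0.43 when libraries were scaled by the summed Sertoli markers and 0.20 in limma on log2(CPM + 1).

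Among the 3 growth factors read in both sets, Wnt6 had the smallest change. Its log2 change was 0.94 (SE 0.08, 95% interval 0.77 to 1.10, edgeR adjusted p = 4.89e-11), and it was 0.68 with scaling by the summed Sertoli markers. Its range in sorted cells, 29.4 to 103.3 CPM, reached into the 98.4 to 143.9 CPM of the NANOS2 KO testes through group C replicate 1 alone. Group C replicate 2 had 97.8 CPM. Kitl changed by 2.06 (SE 0.13, 95% interval 1.80 to 2.32, adjusted p = 7.22e-14), with a highest sorted library of 62.1 CPM below the lowest NANOS2 KO library of 141 CPM. Gdnf changed by 2.40 (SE 0.17, 95% interval 2.05 to 2.76, adjusted p = 1.86e-12), with 10.7 CPM as the highest sorted and 22.6 CPM as the lowest NANOS2 KO library. The summed scaling gave 1.80 for Kitl and 2.18 for Gdnf. The 16 Sertoli markers themselves had a median of 0.01, with 6 higher and 7 lower, and of -0.23, with 5 higher and 8 lower, under the summed scaling.

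For the 6 factors near the floor in sorted cells, the ratio of pooled CPM is given with its 95% counting interval. The fitted change of a gene with a stage group at 0, as for Fgf2, Bmp4 and Wnt5a, depends on the prior count. Cxcl12, Csf1 and Igf1 had counts in every stage group, with sums of 1, 1 and 2 in group B. Cxcl12 (ENSMUSG00000061353.11, chr6:117168535-117181367) was 180.5-fold higher in NANOS2 KO testes (interval 130.3 to 257.9), from 36 counts in all sorted libraries against 8042. Csf1 (ENSMUSG00000014599.10, chr3:107741048-107760469) was 146.8-fold higher (102 to 219.4), Igf1 75.0-fold (53.6 to 108.5), Bmp4 (ENSMUSG00000021835.15, chr14:46383520-46390669) 48.5-fold (24.4 to 113), Fgf2 (ENSMUSG00000037225.13, chr3:37348346-37410108) 34.5-fold (13.3 to 128.2) and Wnt5a (ENSMUSG00000021994.15, chr14:28504750-28527448) 24.4-fold (17.6 to 35.1). No library of one set fell in the range of the other for any of these 6. They entered through the NANOS2 KO libraries and had to differ, so the ratios and the separation describe levels and are no support. Nrg1 (ENSMUSG00000062991.7, chr8:31814551-32884029) was 5.33-fold higher (2.73 to 11.6) on 10 against 66 counts, and its ranges overlapped. Intervals cover counting error only. In the same comparison 38.0% of all genes were called higher and 47.0% lower. Of the markers tested, 8 of 8 Leydig, 7 of 8 macrophage, 7 of 7 stromal and 6 of 6 endothelial markers were higher. Of 7 myoid markers 5 were higher and 2, Actg2 and Myl9, lower. The part of these cells in the levels of these 6 factors was not tested.

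**Figure D4:**
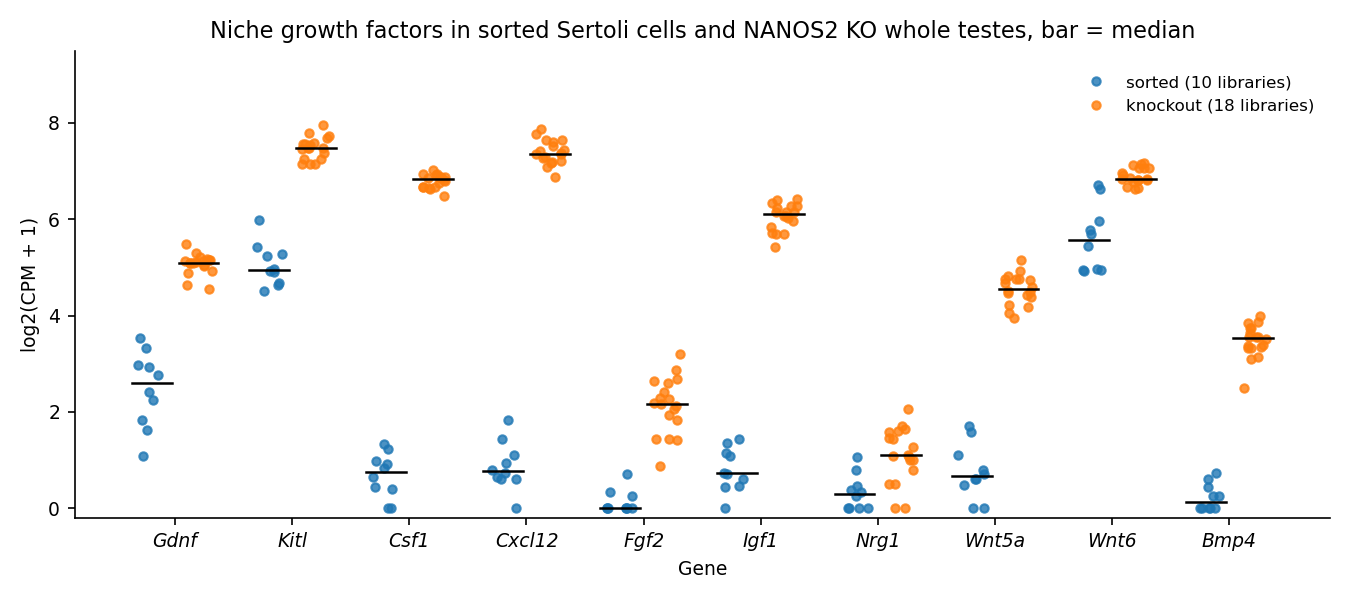
log2(CPM + 1) of the 10 growth factors in 10 sorted Sertoli cell libraries and 18 NANOS2 KO whole testes, with 1 point per library and a bar at the median. Gdnf, Kitl and Wnt6 stand clear of 0 in sorted cells, and the other 7 lie near 0 there. All but Nrg1 are separate between the sets or, for Wnt6, meet only through group C replicate 1.

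**Figure D5:**
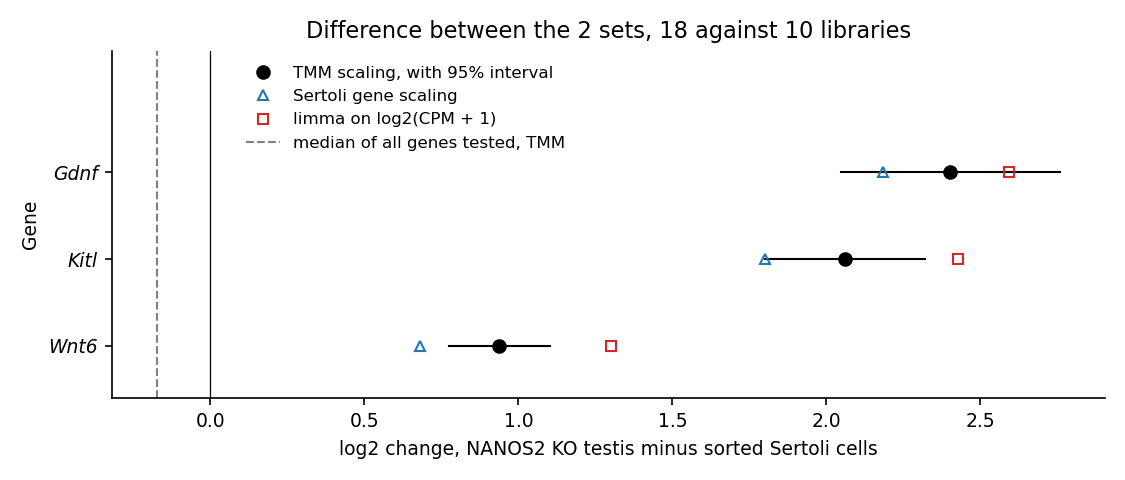
log2 change between NANOS2 KO testes and sorted Sertoli cells for the 3 growth factors that passed the filter in both sets, with the 95% interval under TMM scaling, the value with scaling by summed Sertoli markers, and the value from limma on log2(CPM + 1). Wnt6 lies at 0.94, Kitl at 2.06 and Gdnf at 2.40 under TMM scaling, and the dashed line marks the median of all genes at -0.17.

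Of 32 receptors tested between the sets, 22 were higher and 4 lower in NANOS2 KO testes, where 38.0% and 47.0% of all genes were called higher and lower. Within the sorted set 27 receptors, 19 response genes and 21 modulators had passed the filter, and those that entered through a single set had to differ. The counts of these lists are therefore no support. Csf1r, the receptor of CSF1 on macrophages, had 147.5 ± 19.8 CPM (SD, n = 18) against 39 counts in all sorted libraries. Fzd1 changed by 4.09 (SE 0.12), and Fgfr2 had 81.2 ± 9.98 CPM (SD, n = 18) against 25 counts in all sorted libraries. The 4 that fell were Ret, Fzd5 (-0.52, SE 0.15), Cxcr4 (-0.43, SE 0.14) and Fgfr3 (-0.94, SE 0.31). Ret had means of 0.93 CPM on days 42 to 44 and 2.12 on days 48 to 50 in NANOS2 KO testes. It entered through the sorted libraries alone and had to differ, so no fitted change is given. Cxcr4 was at 22.6 ± 5.85 CPM in sorted cells (SD, n = 10) and 22.1 ± 5.03 CPM in NANOS2 KO testes (SD, n = 18), and its call came with the joint scaling. Kit, the receptor of KIT ligand on spermatogonia and Leydig cells, was at 14.5 ± 6.34 CPM in sorted cells and 111.4 ± 33.4 CPM in NANOS2 KO testes (log2 change 2.63, SE 0.14, edgeR adjusted p = 4.1e-15).

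Among response genes the directions were mixed, with 11 of 21 higher and 6 lower. The share beside this and the next 2 list counts is 38.0% of all genes called higher and 47.0% lower. Id3 (4.79, SE 0.20), Irs1 and Id1 (4.24, SE 0.24) had the smallest p of those that rose, Irs1 with 7 counts in all sorted and 1264 in all NANOS2 KO libraries, and Lef1 (-2.46, SE 0.21), Etv5 (-0.89, SE 0.09) and Spry4 (-1.02, SE 0.12) of those that fell. Secreted modulators were higher in 17 of 26 and lower in 5. Igfbp4, Igfbp6 and Igfbp3 led the rises at 5.19, 5.17 and 4.56, and Frzb fell by 1.30 and Fstl3 by 2.35 on the log2 scale. Dkk3 also fell, with means of 1.45 CPM on days 42 to 44 and 1.59 on days 48 to 50 in NANOS2 KO testes. It entered through the sorted libraries alone and had to differ, so no fitted change is given. Regulators were higher in 8 of 16 and lower in 4, beside the same shares of all genes, and nothing is read from this count. Nfkb1 rose by 2.19 (SE 0.11) and Creb1 by 1.69 (SE 0.13), while Hes1 and Jag1 changed by -1.05 and -0.99. Hey1 also fell, but it was near the floor in NANOS2 KO testes, with means of 0.71 CPM on days 42 to 44 and 0.49 on days 48 to 50. It entered through the sorted libraries and had to differ, so no fitted change is given. Of the same Notch pathway, Notch1, Notch2 and Heyl were called higher, so nothing is read from the pathway.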

How the data were processed

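RNA of 28 libraries was compared. Per the submitters' processing notes, Bowtie, TopHat and Cufflinks were used with mm10; their versions, the counting, strand and annotation were not given in the sources used here. Raw counts per gene symbol, made by the authors, fill 2 of the 4 deposited tables. The deposited tables named FPKM hold CPM, the count divided by the library total, to within 0.0005, and no gene length. In the text, CPM is this value and log2 changes come from scaled counts. Spreadsheets had turned 27 symbols into dates (0.215 to 0.332% of counts), which are not named. In the deposited NANOS2 KO counts 2 columns of day 42 share a header; matching CPM values gave their replicate numbers.

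Counts were filtered with filterByExpr (minimum count 10), scaled with TMM and tested by quasi-likelihood in edgeR 4.0.16 (R 4.3.3), each over all genes with Benjamini-Hochberg adjustment and a threshold of 0.05. The biological coefficient of variation was 0.268 in sorted cells, 0.122 over the days and 0.192 in the joint fit. The code was tested on simulated data with known changes. Positions and exon lengths are from GENCODE M21 (GRCm38).

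The 10 growth factors and the lists (receptors, related ligands, secreted modulators, response genes, regulators and markers of Sertoli, Leydig, myoid, macrophage, endothelial, stromal and germ cells) were chosen with earlier results of these data known. All 10 factors are described. From each list the called genes with the smallest p, at most 3 in each direction, are named per comparison, and receptors also by level; 1 gene that this rule takes is not reported here. Likeness took the 3 genes with the highest Pearson r of log2 CPM (prior count 2), without predicted, ribosomal, mitochondrial and small RNA genes.

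The other settings tried were RLE scaling, no filter on low counts, DESeq2 1.42.0, limma 3.58.1 on log2(CPM + 1) and log2(CPM + 0.1), the replicate number as a block, scaling by the summed Sertoli markers, and leaving out each library in turn. Scaling by their median and a filter in both sets were added after seeing the data. Same-numbered libraries deviated together with correlations of -0.11 to 0.43 (median 0.20) in sorted cells and -0.27 to 0.13 (median -0.00) in NANOS2 KO testes. The reported fits do not pair libraries by number, and whether same-numbered sorted libraries share an effect was not settled. Replicates of a group differed by more than sampling noise, and all were kept.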

Additional observations from a re-analysis of the deposited data

How the results depend on the processing

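The count of growth factors called kept within 1.5 times of the reported one under all settings but these. With low genes kept, the stage F test called 2 (Gdnf and Wnt6), the contrast of stages IX-XII with IV-VIII called 2 (Wnt5a and Wnt6) in edgeR and 2 in limma, and the day F test called 1 (Igf1). The line over days called 0 in limma with a pseudocount of 1 or 0.1, in limma with low genes kept, and with scaling by the median of the Sertoli markers. With the filter applied in both sets, an alternative chosen after seeing the data, 3 growth factors were tested and called between the sets. Of all 11526 genes tested there, 9416 were called, so this count is no support. Fewer genes were tested there by construction. Leaving out 1 library at a time gave 1 to 2 calls in the stage F test (2 without group C replicate 1), 0 to 1 in the day F test (1, Igf1, without day 49 replicate 2, adjusted p = 0.0214 in edgeR) and 0 to 1 on the line. The lone library of a group was then assumed to vary like the others. Changes of sign occurred only in values that did not pass: Kitl between stages (-0.13 to 0.52 over the omissions), the slope of Bmp4 (-0.0432 to 0.0018) and the slope of Gdnf (-0.0133 to 0.0253). The cause of these changes was not tested. With the replicate block the stage F test called 1 growth factor, Wnt6, as without it, and 1671 genes against 1159, and no call of a growth factor changed in any comparison. The stage F test called 2764 genes with low genes kept, 1997 in DESeq2, 754 with the median of the Sertoli markers and 501 in limma with low genes kept; the stage contrast called 2037 genes in edgeR, 1306 with that median and 1223 in limma with low genes kept; the day F test called 76 genes in edgeR, 968 with low genes kept, 217 in DESeq2 and 23 to 38 in limma with the filter; the line called 112 in edgeR, 65 with the replicate block, 63 with that median, 212 in DESeq2, 4 in limma with low genes kept and 21 to 25 in limma with the filter; the cyclic fit called 0 in edgeR (1264 at an unadjusted p under 0.05), 57 in DESeq2 and 359 with low genes kept. With scaling by the summed Sertoli markers the stage contrast called 1004 higher and 656 lower, against 993 and 1044, and the comparison of sets 4966 higher and 8346 lower, against 6003 and 7416; limma on log2(CPM + 1) gave 7622 and 5867 there. Leaving out 1 library gave 414 to 1557 genes in the stage F test (414 and 472 without the replicates of group D, 624 and 619 without those of group E), 919 to 2150 in the stage contrast (919 without group E replicate 1), 24 to 909 in the day F test (24 without day 42 replicate 1, 909 without day 49 replicate 2) and 4 to 204 on the line (4 without day 42 replicate 1, 204 without day 50 replicate 2). Depth left 3 to 35 counts of Gdnf per sorted library, and levels of the 7 factors near the floor in sorted cells are limited by counting error.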

Other observations

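Unlike Wnt6, which was read in both sets, Wnt3, a WNT ligand on the list of related ligands, was nearly confined to the sorted set. It was read at 5.96 to 54.1 CPM in the 10 sorted libraries, with a mean of 30.1 ± 14.2 CPM (SD, n = 10), and had 1 count in all 18 NANOS2 KO libraries together. The sorted libraries held 1186 counts and were the only ones through which it passed the filter, so no fitted change is given. Across stages its contrast of E and A with C and D was 1.06 (SE 0.36, adjusted p = 0.0655). Of 25 related ligands tested between the sets, 16 were higher and 5 lower in NANOS2 KO testes, where 38.0% and 47.0% of all genes were. Within the sorted set 14 had passed the filter, and those that entered through 1 set alone had to differ, so these counts are no support. Igf2 (3.98, SE 0.16), Cxcl16 (46 counts in all sorted libraries, 23.2 ± 4.29 CPM in NANOS2 KO testes, SD, n = 18) and Bmp1 (3.32, SE 0.19) had the smallest p of those that rose, and Wnt3, Wnt7b (82 counts against 4) and Inhbb (-0.39, SE 0.07) of those that fell. Inhbb, which encodes an inhibin and activin subunit made by Sertoli cells, was at 283.8 ± 33.0 CPM in sorted cells (SD, n = 10) and 282.6 ± 43.2 CPM in NANOS2 KO testes (SD, n = 18), and its fall comes with the joint scaling, whose TMM factors were 0.797 to 0.888 in sorted and 1.07 to 1.14 in NANOS2 KO libraries. Most germ cell markers tested fell in the same comparison. Lower were 8 of 8 of elongating spermatids, 8 of 8 of round spermatids, 8 of 9 of spermatocytes and 8 of 11 of spermatogonia. Kit and Zbtb16 of the spermatogonial list and Mlh3 of the spermatocyte list were higher. The part of germ cells in the level of Wnt3 was not tested.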
